A study of Mus musculus with 24 samples.

Results

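The 10 genes described here belong to pigment cells and the pigment epithelium and were followed through the late culture of mouse retinal organoids. They are 10 of the 46603 annotated genes in the count tables. They were chosen by name, as the rows whose Ensembl identifier carries the symbol Mitf, Tyr, Tyrp1, Dct, Pmel, Mlana, Slc45a2, Oca2, Rpe65 or Ttr, and every symbol matched exactly 1 row. Mouse retinal organoids (MROs) are spheres of layered retinal tissue that were grown here from E14Tg2a, a mouse embryonic stem cell line. Whole MROs were sequenced singly as total RNA after removal of ribosomal RNA, with 6 organoids on every sampling day (D20, D22, D25 and D30 of differentiation). The 24 organoids share the genotype label Control, and their labels name water, a solvent, as the only addition. By the study's methods, all organoids of this protocol had been given the synthetic retinoid EC23 earlier in culture, before the first sampling day. They come from 1 line and 1 independent experiment, so that every p-value given here measures the spread between organoids of that experiment only.

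The pigment epithelium is the single sheet of pigmented cells behind the neural retina, which recycles the retinoid of the visual pigments and serves the photoreceptors. Like melanocytes of the neural crest, it makes melanin inside a special organelle, the melanosome, under the control of the transcription factor MITF. MITF binds short sequences around CATGTG, and the longer form TCATGTG is known as the core of the M-box of melanin enzyme promoters. The melanosome genes among the 10 are Tyr, Tyrp1 and Dct for the enzymes of melanin synthesis, Pmel for the fibrils on which melanin is laid down, Mlana for a membrane protein, and Slc45a2 and Oca2 for transport proteins. Rpe65 encodes the isomerase of the visual cycle. Ttr encodes transthyretin, the carrier of thyroid hormone and of the retinol-binding protein, which pigment epithelium secretes but which choroid plexus, liver and visceral endoderm make as well.

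Promoter sequence was at hand for 6 of the 10 genes, in 8 windows of 250 bases before a RefSeq start site (build GRCm38.p6). TCATGTG or its reverse complement stood in the windows of 3 genes, Tyr, Tyrp1 and Dct, against 3.25% of all 32851 promoter windows of that length. These 3 windows are shown because the 3 melanin enzymes took different courses over time. Each is written 5′ to 3′ on the strand of its gene, ending at the base before the start site, with CATGTG on either strand in capitals. The windows lie at chr7:87493513-87493762 on the minus strand for Tyr, chr4:80833963-80834212 on the plus strand for Tyrp1 and chr14:118052247-118052496 on the minus strand for Dct.
Tyr: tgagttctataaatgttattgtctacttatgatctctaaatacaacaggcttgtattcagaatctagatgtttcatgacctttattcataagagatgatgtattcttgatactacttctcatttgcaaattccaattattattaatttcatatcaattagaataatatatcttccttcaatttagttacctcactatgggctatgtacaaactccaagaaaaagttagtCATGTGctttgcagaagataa
Tyrp1: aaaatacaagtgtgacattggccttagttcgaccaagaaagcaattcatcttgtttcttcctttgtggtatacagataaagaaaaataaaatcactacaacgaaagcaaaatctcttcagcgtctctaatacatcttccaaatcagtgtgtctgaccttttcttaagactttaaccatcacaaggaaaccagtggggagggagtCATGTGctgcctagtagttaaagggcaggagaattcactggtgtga
Dct: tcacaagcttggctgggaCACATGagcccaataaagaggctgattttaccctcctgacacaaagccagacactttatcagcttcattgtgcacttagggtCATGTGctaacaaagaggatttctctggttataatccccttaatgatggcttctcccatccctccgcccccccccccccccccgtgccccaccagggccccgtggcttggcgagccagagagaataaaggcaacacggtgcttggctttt
In Tyr the 7 bases of TCATGTG began 22 bases before the start, and in Tyrp1 47 bases before it. Dct held the sequence 151 bases before the start and its reverse complement 232 bases before it. The shorter CATGTG, which every TCATGTG contains, was found in 5 of the 6 genes, with Oca2 and Rpe65 added on the opposite strand, while 12.3% of all windows held it. None of the 3 windows of Mitf held it. A match is a run of letters and was not tested as a binding site.

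The counted reads of an organoid numbered 13634846 to 19477108, with medians from 14646126.5 at D20 to 17278681.5 at D30. At this depth 3 counts, the floor used here for a gene without reads, were worth 0.154 to 0.22 CPM, a gene's reads relative to all counted reads of its organoid. Levels below are normalized CPM, which are also scaled by the TMM factor of the library. No organoid repeated another within sampling noise. Of the 10 genes, 6 passed the minimum of 10 normalized counts on average (Mitf, Tyr, Tyrp1, Dct, Pmel and Ttr) and entered the test across all 46949 features that passed. Oca2, Mlana, Slc45a2 and Rpe65 stayed below it. The label retina held for the organoids as a whole, since the eye field factor Rax was at 155.9 CPM at D20 and 70.3 CPM at D30 and the photoreceptor gene Rcvrn reached 484.5 CPM at D30.

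In all, 3 of the genes changed between D20 and D30. Mitf rose 2.54-fold, Ttr rose 118-fold and Dct fell to 0.196 of its D20 level, while Tyr, Tyrp1 and Pmel did not pass the threshold. By edgeR's quasi-likelihood test with an adjusted p under 0.01, 3 of the 6 tested genes were called, 2 higher and 1 lower, where 26.8% of all tested features were called (13.9% higher and 13% lower). The same 3 genes were called in the joint test of the 4 timepoints, where 27.2% of all features were. From D20 to D22 no gene of the 6 was called by edgeR, by DESeq2 (1.9% of all features by edgeR), and none had an unadjusted p under 0.05 in edgeR, which 17.8% of all features had. From D22 to D25 none was called by edgeR or DESeq2 (5.28% of all features by edgeR), and 5 of the 6 had an unadjusted p under 0.05 in edgeR, which 24.2% of all features had. From D25 to D30 Dct alone was called, as lower, beside 3.51% of all features (1.75% lower).

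**Figure D1:**
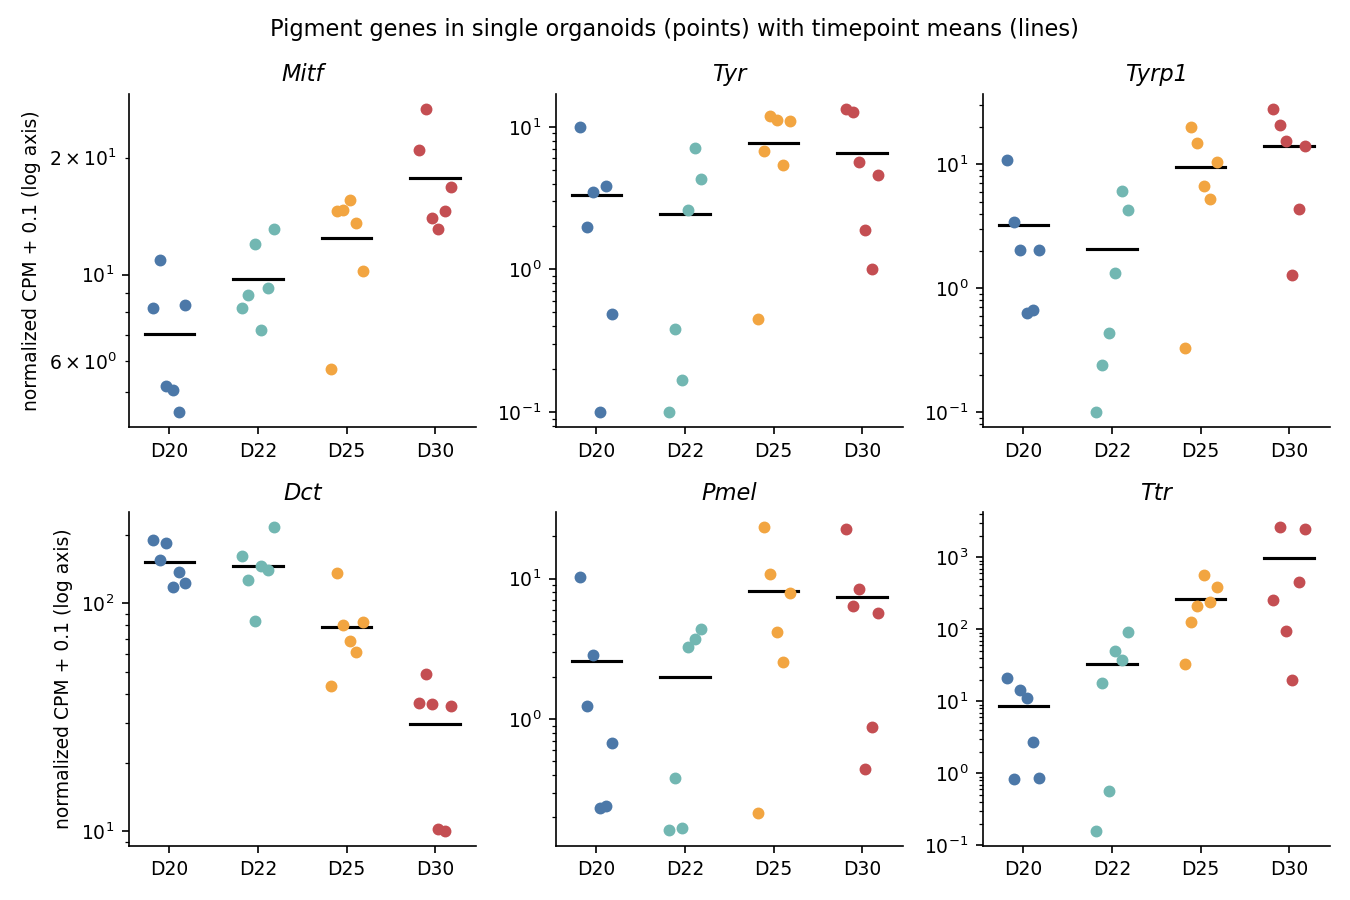
Normalized CPM plus 0.1 (log axis, a different range in each panel) of the 6 tested genes in each organoid (points) at D20, D22, D25 and D30, with the mean of the 6 organoids as a line. In the mean, Mitf and Ttr stand higher and Dct lower at D30 than at D20. Tyr, Tyrp1, Pmel and Ttr spread over more than 10-fold among organoids of the same day.

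Mitf, the transcription factor at the head of the pigment programme, rose in small steps. Its normalized CPM at D20 were 4.34 at the lowest, 6.6 at the median and 10.8 at the highest, at D22 7.11, 8.96 and 13.0, at D25 5.62, 14 and 15.4, and at D30 13.0, 15.6 and 26.6. All 6 organoids of D30 lay above all 6 of D20, while neighbouring timepoints overlapped. Such a separation in the upward direction was found for 9.6% of all tested features. The mean rose from 6.93 ± 2.54 CPM at D20 to 17.6 ± 5.23 at D30 (SD, n = 6 each), a log2 change of 1.34 with a standard error of 0.24 (edgeR's quasi-likelihood test, adjusted p = 4.58e-05). None of the 3 steps in between was called, with log2 changes of 0.48, 0.34 and 0.52. Of the relatives of Mitf in the MiT/TFE family, the 2 tested were not called. Tfe3 had 22.0 CPM at D20 and 20.2 at D30, Tfeb 5.59 and 4.58, and Tfec, without reads at D20, stayed below the filter with 34 reads at most in a D30 organoid. With no filter on low counts, 1 of the 3, Tfec, was called higher. The share of all features called higher in that fit is not given.

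Dct, dopachrome tautomerase, had the highest mean level per kilobase of exon among the melanosome genes at each timepoint, though at D30 not beyond the spread of Tyrp1, and was the only gene of the 6 to fall. Its normalized CPM at D20 were 117.7 at the lowest, 146.2 at the median and 190.1 at the highest, and at D22 83.4, 142.4 and 215.7. They were 43.5, 74.3 and 135.2 at D25, and 9.99, 35.8 and 49.0 at D30. All D30 organoids lay below all D20 organoids, a separation that 9.34% of all tested features showed in that direction, whereas D25 and D30 overlapped. Within D30 the organoids fell into 4 between 35.5 and 49.0 CPM and organoids 4 and 5 near 10.2 and 9.99 CPM. The mean went from 151 ± 30.5 at D20 to 29.5 ± 15.9 at D30, a log2 change of -2.35 with a standard error of 0.30 (edgeR's quasi-likelihood test, adjusted p = 2.09e-07). From D22 to D25 the log2 change was -0.89 (edgeR's quasi-likelihood test, adjusted p = 0.0399), and from D25 to D30 -1.41 (adjusted p = 0.00202). The D25 to D30 call rested on organoid 2 of D25, the highest of its day at 135.2 CPM, without which the adjusted p was 0.0102 (edgeR's quasi-likelihood test). It was also lost in the fit of D25 and D30 alone, with an adjusted p of 0.0160 in the same test. In whole organoids, fewer cells that express Dct and less Dct RNA per cell cannot be told apart.

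Tyr, Tyrp1 and Pmel spread widely between organoids of the same day. Tyr, tyrosinase, the enzyme that starts melanin synthesis, had 0, 2.63 and 9.86 CPM at D20 (lowest, median and highest) and 0, 1.41 and 6.98 at D22. At D25 it had 0.347, 8.77 and 11.7 CPM, and at D30 0.914, 5.03 and 13.3. Its D30 and D20 ranges overlapped, and the log2 change of 1.01 with a standard error of 0.82 was not called (edgeR's quasi-likelihood test, adjusted p = 0.352). Tyrp1, the tyrosinase-related protein of the melanosome membrane, had 0.528, 1.92 and 10.6 CPM at D20 and 0, 0.784 and 5.97 at D22. Its values were 0.232, 8.42 and 19.9 CPM at D25 and 1.17, 14.6 and 27.98 at D30. In 4 of the 6 D30 organoids Tyrp1 exceeded every D20 organoid, and in organoids 4 and 5 it did not. The Tyrp1 log2 change from D20 to D30 was 2.15 with a standard error of 0.79 and missed the threshold (edgeR's quasi-likelihood test, adjusted p = 0.0320). It depended on single organoids of both days. Without organoid 1 of D20 the change was 3.07 and called (edgeR's quasi-likelihood test, adjusted p = 0.00508). Over the omission of each organoid the change ranged from 1.82 to 3.07. The highest adjusted p, 0.0795 in the same test, was reached without organoid 1 of D30.

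Pmel, which encodes the fibril protein, had 0.132, 0.859 and 10.1 CPM at D20 and 0.0613, 1.71 and 4.26 at D22. At D25 the lowest, median and highest were 0.116, 5.92 and 23.1 CPM, and at D30 0.344, 5.92 and 22.3. The timepoints overlapped throughout. The log2 change from D20 to D30 was 1.56 with a standard error of 0.92 (edgeR's quasi-likelihood test, adjusted p = 0.190). Exons of Pmel share 105 bases with Dgka and 34 with Cdk2, both on the opposite strand, and the sources used here do not state whether reads were counted by strand, so its counts are less certain than the others. Over organoids Pmel followed neither neighbour closely, with r = 0.216 for Dgka and 0.149 for Cdk2 once the days were set aside (n = 24), far below its r with Tyrp1 given further on.

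The melanin enzymes stood at other levels relative to each other at D20 than at D30. Per kilobase of exon, the mean Dct level was 25.6 CPM at D20 against 1.11 for Tyrp1, a ratio of 23.0. At D30 the levels were 5.01 and 4.91 CPM per kilobase, a ratio of 1.02. Against Tyr, the ratio of mean levels per kilobase went from 56.7 at D20 to 5.54 at D30. Tyrp1 spread widely on both days, with an SD of 1.35 CPM per kilobase at D20, above its mean, and 3.54 at D30 (n = 6 each). For Tyr the SD at D20 was 0.506 CPM per kilobase beside a mean of 0.452. These are ratios of means, and the ratios in single organoids are not given.

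The order by level per kilobase was led by Dct at D20, with 25.6 ± 5.18 CPM per kilobase (SD, n = 6), followed by Ttr with 7.09 ± 7.06. Mitf, Tyrp1 and Pmel came next at 1.12, 1.11 and 1.08 CPM per kilobase and did not differ beyond their spread. Tyr stood at 0.452, and the 4 genes below the filter at 0.0457 or less. At D30 Ttr led with 832 ± 1026 CPM per kilobase. Dct at 5.01, Tyrp1 at 4.91, Pmel at 3.17 and Mitf at 2.84 CPM per kilobase followed within their spread of each other. Tyr stood at 0.905, Mlana at 0.379, Oca2 at 0.274, Slc45a2 at 0.0733 and Rpe65 at 0.0519.

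**Figure D2:**
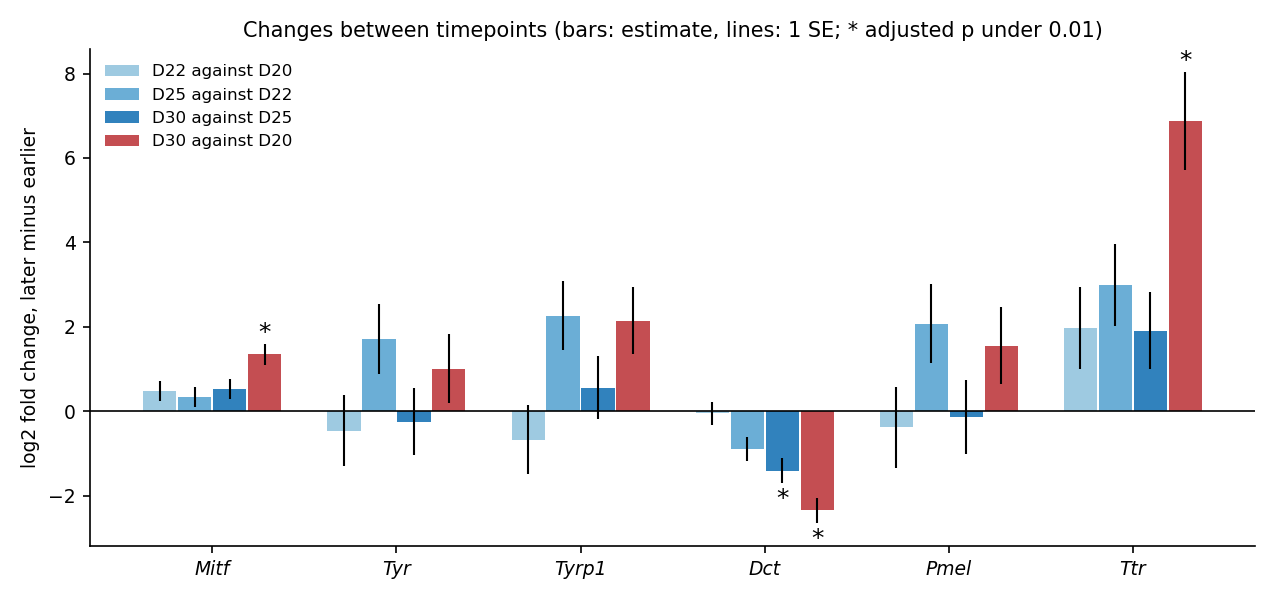
Log2 fold change, later minus earlier timepoint (vertical axis), of the 6 tested genes in the 3 successive steps and over the whole interval, with lines of 1 standard error and a star for an adjusted p under 0.01 in edgeR's quasi-likelihood test. The starred bars are Mitf, Dct and Ttr for D30 against D20 and Dct for D30 against D25.

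The other 4 genes were present only in traces. Oca2, a melanosomal transport protein, had 8, 43, 54 and 104 reads summed over the 6 organoids of each timepoint in order. It had 0 to 4 reads per organoid at D20 and 5 to 39 at D30, so that these timepoints did not overlap. The nearest organoids, with 4 and 5 reads (0.264 and 0.277 CPM), did not differ beyond counting error. Such an upward separation was found for 9.6% of all tested features, which do not include Oca2. At D22, 32 of the 43 reads came from organoid 2. With no filter on low counts the Oca2 change from D20 to D30 was called (log2 3.49, standard error 1.00, edgeR's quasi-likelihood test, adjusted p = 0.00819). Mlana had 3, 3, 14 and 41 reads in the same order, and 25 and 13 of the last were in organoids 1 and 2. Slc45a2 had 12, 2, 12 and 22 reads over the 4 timepoints and at most 8 in any organoid. Without the filter, neither Mlana (adjusted p = 0.0733) nor Slc45a2 (adjusted p = 0.772) was called from D20 to D30 by edgeR's quasi-likelihood test.

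Rpe65, whose product defines the working pigment epithelium, had no read in any D20 organoid, and no organoid of any day had more than 3. Its sums over the 4 timepoints in order were 0, 3, 1 and 10 reads. All values were at or below the floor of 3 counts, so no fold change is given. Some other genes of the pigment epithelium and the melanosome were sparse at D30 as well. The chloride channel gene Best1 had 2 reads at most in an organoid, the melanosome receptor gene Gpr143 had 1, the lactate transporter gene Slc16a8 had 10 and the retinal G-protein-coupled receptor gene Rgr had 13. Others were not sparse. The visual cycle gene Rdh5, the opsin gene Rrh and the phagocytosis receptor gene Mertk had means of 5.18, 9.28 and 6.26 CPM at D30.

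**Figure D3:**
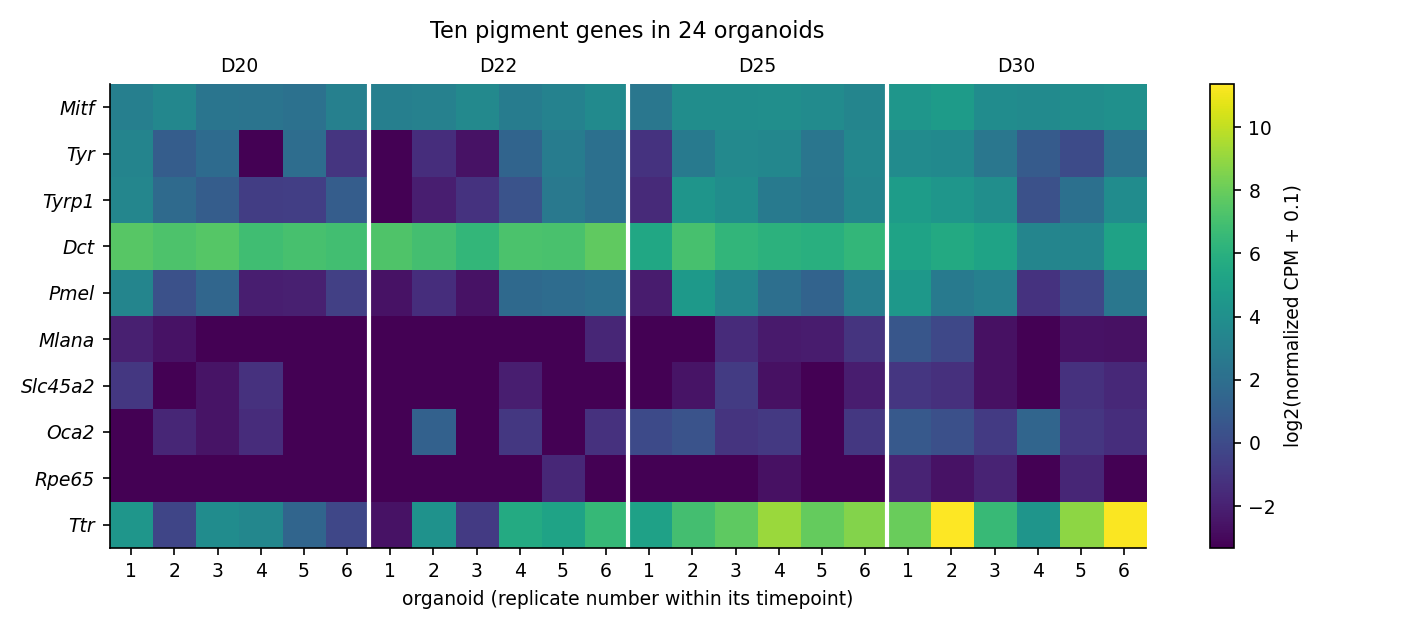
Log2 of normalized CPM plus 0.1 (colour) for the 10 genes (rows) in the 24 organoids (columns, by timepoint and replicate number). Mlana, Slc45a2, Oca2 and Rpe65 stay dark in most organoids, and organoids 1, 2 and 3 of D22 and organoid 1 of D25 are dark for Tyr, Tyrp1 and Pmel.

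Many organoids that were high or low for their day in Tyr were so in Tyrp1 and Pmel too. At D22 organoids 1, 2 and 3 had at most 0.279 CPM of Tyr, 0.338 of Tyrp1 and 0.279 of Pmel. Organoids 4, 5 and 6 of the same day had at least 2.53, 1.23 and 3.14 CPM of these genes. At D20 organoid 1 was the highest in all 3, with 9.86, 10.6 and 10.1 CPM. Organoid 5 of D20 did not follow, with the second highest Tyr level of its day at 3.77 CPM but 0.569 CPM of Tyrp1 and 0.142 of Pmel. At D25 organoid 1 was the lowest in all 3, with 0.347, 0.232 and 0.116 CPM, and it was also the lowest of its day in Mitf, Dct and Ttr. At D30 organoids 4 and 5 were the lowest pair in Tyr, Tyrp1, Pmel and Dct, and organoid 1 was the highest in Tyr, Tyrp1, Pmel and Mlana.

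This was tested over all 24 organoids on deviations from the mean of the timepoint, on the scale log2(normalized CPM + 0.1), with 15 pairs among the 6 tested genes. In 12 of the 15 pairs Pearson's r passed an adjusted p of 0.05 (two-sided permutation test within timepoints, Benjamini-Hochberg over the 15 pairs), and all 12 were positive. Over the annotated genes with at least 100 normalized counts, the median r with each of the 6 lay between -0.142 for Dct and 0.0378 for Mitf. The closest pair was Tyrp1 and Pmel, with r = 0.939 and Spearman's rho = 0.923 (permutation p = 1e-05 for both, the smallest that 100000 permutations can give, adjusted p = 7.5e-05 and 0.00015). It held within each timepoint, with r from 0.909 at D22 to 0.987 at D25 (n = 6 organoids each), and r was 0.923 without the 2 organoids farthest from the median of Tyrp1. Tyr followed both, with r = 0.829 and rho = 0.806 for Tyrp1 and r = 0.840 and rho = 0.823 for Pmel (permutation p = 3e-05 and 1e-05 for r, adjusted p = 0.000113 and 7.5e-05; permutation p = 4e-05 and 2e-05 for rho, adjusted p = 0.000188 and 0.00015). Without the 2 farthest organoids, r was 0.797 and 0.804.

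Dct moved with the same genes among organoids although it fell with time. Its r was 0.757 with Pmel, 0.656 with Tyrp1 and 0.590 with Tyr (permutation test, adjusted p = 0.000113, 0.00099 and 0.00113), with rho of 0.747, 0.702 and 0.605 (adjusted p = 0.000188, 0.00048 and 0.00383). With the days left in, the same values of r were 0.0178, -0.204 and -0.0707. Leaving out the 2 farthest organoids gave r of 0.735, 0.724 and 0.552. For the pair of Dct and Pmel, 1 of the 10829 other annotated genes with at least 100 normalized counts matched Dct at least as well as Pmel did, whereas the median r of those genes with Dct was -0.142.

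Mitf had lower values of r with the melanosome genes, and whether they differed from those of the other pairs was not tested. Its r was 0.649 with Tyrp1, 0.516 with Pmel and 0.433 with Dct (permutation test, adjusted p = 0.00341, 0.0259 and 0.0411), and 0.407 with Tyr, which did not pass (adjusted p = 0.0665). When organoid 1 of D25 was left out, the pairs with Pmel and Dct no longer passed (permutation test, adjusted p = 0.172 and 0.164). The pair with Dct was also lost without any 1 of several other organoids. Among them were organoids 2 and 4 of D30 (permutation test, adjusted p = 0.0908 and 0.0892). With the replicate number as a block the pair with Dct was lost (permutation test, adjusted p = 0.211). By rank the values were lower, with rho of 0.552, 0.360, 0.377 and 0.282 in the same order, of which the first alone passed (permutation test, adjusted p = 0.0149). Without the 2 farthest organoids, organoid 1 of D25 and organoid 2 of D20, r was 0.547, 0.407, 0.380 and 0.274. Of 10829 other annotated genes with at least 100 normalized counts, 0.176% had an r with Mitf at least as high as that of Tyrp1. For Pmel this share was 1.88%, for Dct 4.77% and for Tyr 6.03%. Ttr had r of 0.605 with Tyr, 0.603 with Tyrp1 and 0.601 with Pmel (permutation test, adjusted p = 0.00863, 0.00863 and 0.00714), with rho of 0.6, 0.517 and 0.573 (adjusted p = 0.0149, 0.0313 and 0.0149). Without the 2 farthest organoids these values of r were 0.724, 0.468 and 0.510. The pairs of Ttr with Dct (r = 0.426, rho = 0.404, permutation test, adjusted p = 0.0627 and 0.0879) and with Mitf (r = 0.183, rho = 0.170, permutation test, adjusted p = 0.357 and 0.439) did not pass, although Ttr and Dct did with the replicate block (permutation test, adjusted p = 0.00785).

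**Figure D4:**
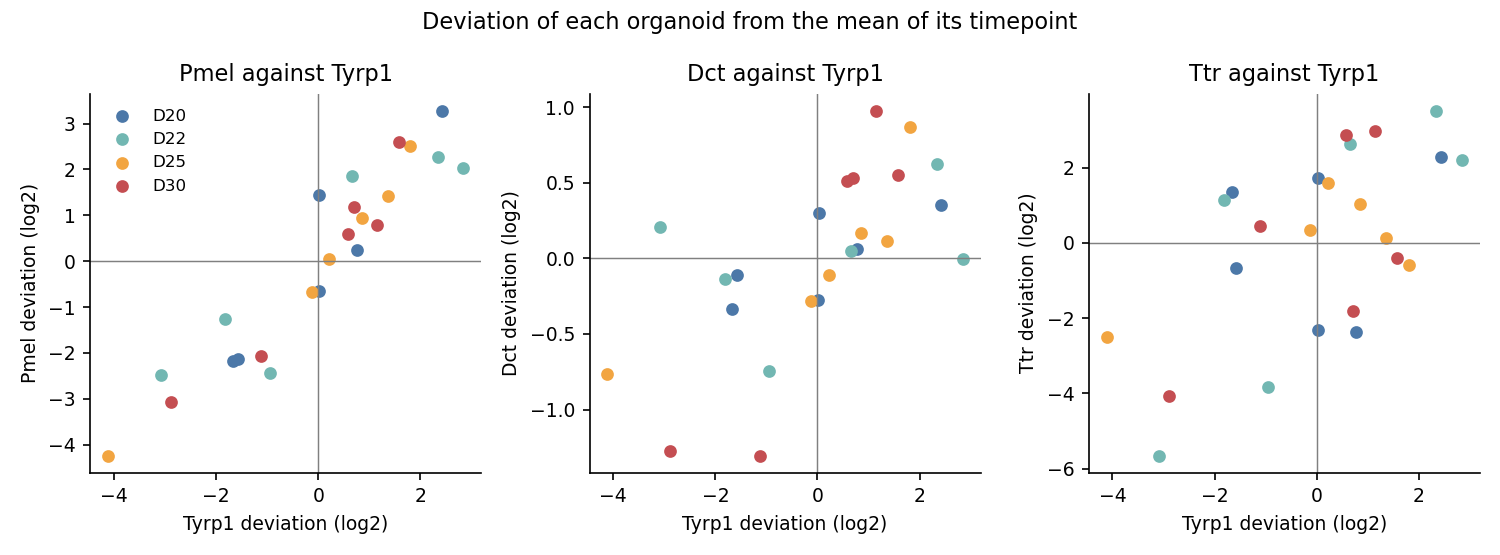
Deviation of each organoid from the mean of its timepoint (log2 of normalized CPM plus 0.1) for Pmel, Dct and Ttr (vertical axes) against Tyrp1 (horizontal axes), 24 organoids coloured by timepoint. Pmel follows Tyrp1 closely (r = 0.939), Dct (r = 0.656) and Ttr (r = 0.603) less so.

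Across the 10830 annotated genes with at least 100 normalized counts on average, Gpnmb was the gene most like Tyr, Tyrp1 and Pmel, with r of 0.838, 0.889 and 0.946 over the 24 organoids on the same deviations. Tyr and Pmel were under that minimum and were not among the genes compared. The r of Pmel was 0.840 with Tyr and 0.939 with Tyrp1, both above those of Gpnmb. Gpnmb encodes a melanosomal glycoprotein related to PMEL. At D22 Gpnmb had at most 0.184 CPM in organoids 1, 2 and 3 and at least 5.18 CPM in organoids 4, 5 and 6, the division seen for the pigment genes. Thbs1 and Ogn, which encode secreted proteins of the extracellular matrix, were among the 5 most alike for Tyr, Tyrp1, Pmel and Ttr, with r between 0.724 and 0.843. The remaining places went to Tyrp1 and Fbn2 for Tyr (0.829 and 0.779) and to Plekhg3 and Ahnak for Tyrp1 (0.752 and 0.731). For Pmel they went to Tyrp1 and Slc4a5 (0.939 and 0.760), and for Ttr to Ccdc141, Trp53rkb and Enpp2 (0.634, 0.629 and 0.618). Those most like Mitf were Cd164 (0.797), Sdc2, Ctsc, Erap1 and B2m (0.734), and those most like Dct were Cd2ap (0.761), Uty, 2810403D21Rik, Plag1 and Ppp4r3b (0.721). None of these 10 was a pigment gene of the lists used here.

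Ttr had the largest change of the 6 genes. Its normalized CPM at D20 were 0.739 at the lowest, 6.86 at the median and 21.0 at the highest, and at D22 0.0613, 27.4 and 92.5. They reached 33.5, 224.6 and 573.7 at D25 and 19.9, 358.3 and 2627 at D30. The median was higher on each later day, but the lowest organoid of D30 was below the highest of D20. The log2 change from D20 to D30 was 6.88 with a standard error of 1.16 (edgeR's quasi-likelihood test, adjusted p = 1.88e-05), from means of 8.41 ± 8.37 and 987 ± 1217 CPM (SD, n = 6 each). The steps in between, 1.98, 2.99 and 1.91 on the log2 scale, were not called (edgeR's quasi-likelihood test, adjusted p = 0.285, 0.0407 and 0.264).

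At D30 organoids 2 and 6 held 86.6% of all Ttr reads of that day, 87340 of 100830. In these organoids Ttr was the sixth and seventh most counted annotated gene, with 0.253% and 0.254% of all counted reads. The other 4 organoids had 208 ± 195 CPM (SD, n = 4), below the D25 mean of 262 ± 194. Without organoids 2 and 6 of D30, the log2 change from D25 to D30 was -0.33 in place of 1.91 and the change from D20 to D30 was 4.64 and still called (edgeR's quasi-likelihood test, adjusted p = 0.904 and 0.000337).

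Many genes of the choroid plexus, another epithelium that secretes transthyretin, were highest in the same organoids. Of the 15 tested genes of a choroid plexus list of 18, organoid 2 was among the highest pair of the D30 organoids for 12 and organoid 6 for 10. Of a list of 9 ciliary margin genes, organoid 2 was among the highest pair for 7 and organoid 6 for 1. The share over all tested features is not given, so these counts are not read as particular to either list. The chloride channel gene Clic6 had 12.2 and 17.7 CPM there and at most 3.20 CPM in the other 4, and the tight junction gene Cldn2 had 5.51 and 3.10 CPM against at most 0.857. The folate receptor gene Folr1 had 21.4 and 22.1 CPM against at most 8.29, and the potassium channel gene Kcnj13, which the pigment epithelium uses too, had 5.63 and 8.37 against at most 1.70. Calml4 had 9.36 and 16.5 CPM against at most 8.45, and the prolactin receptor gene Prlr 6.42 and 4.66 against at most 1.58. Kl, also on the list, was below the filter. The summed level of the list was 676.1 and 537.5 CPM in organoids 2 and 6 and 165 to 280.8 CPM in the others. Enpp2, which stands in the pigment epithelium list too, made up 366.5 and 253.8 CPM of the first 2 sums and at most 68.3 CPM of the others. Without Enpp2 the sums were 309.6 and 283.7 CPM in organoids 2 and 6 and 135.8 to 217.8 CPM in the others. At D20, D22 and D25 the sums ranged from 546.9 to 843.1, from 303.1 to 890.5 and from 224.3 to 450.6 CPM, carried mostly by Kcne2 and Igfbp2, which fell. In the pigment epithelium list, organoids 2 and 6 of D30 were each among the highest pair for 7 of the 15 tested genes, and organoid 5 for 8. Lrat and Col8a1 of that list were highest in organoids 2 and 6. The part of either list in the Ttr result was not tested.

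**Figure D5:**
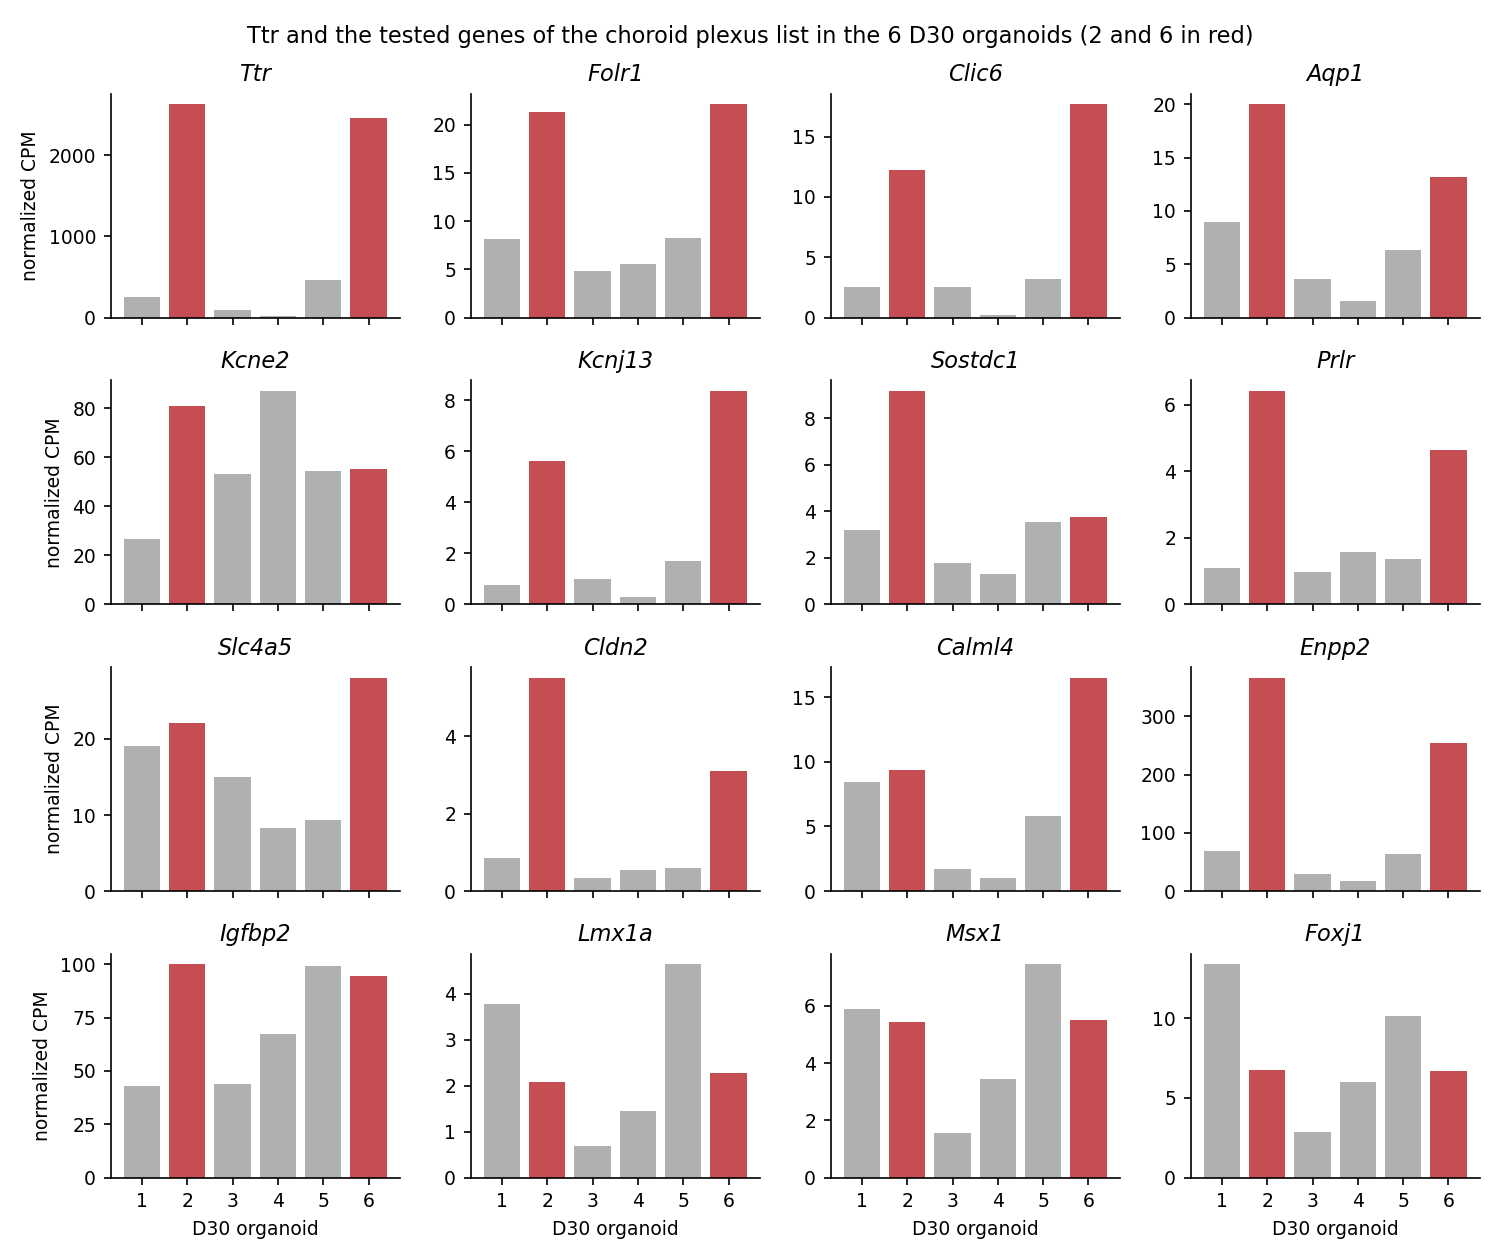
Normalized CPM (vertical axes from 0, a different range in each panel) of Ttr and of the 15 tested genes of the choroid plexus list in the 6 organoids of D30 (horizontal axes), with organoids 2 and 6 in red. Organoids 2 and 6 are the highest pair for Ttr, Folr1, Clic6, Kcnj13, Prlr and Cldn2, among others, but not for Lmx1a, Msx1 or Foxj1.

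Between D20 and D30, 12 of the 15 tested choroid plexus genes rose and 2 fell, with a median log2 change of 2.93 against -0.04 over all tested features, where 13.9% of all features were called higher and 13% lower. The filter lets in genes that are high only at D30, so these counts of tested genes do not speak for the list, in which 5 of the 18 genes had at most 10 reads in every D20 organoid. With no filter on low counts, chosen after seeing the data, 13 of the 18 were called higher and 2 lower. The median log2 change in that fit was 2.39 for the list and 0.13 over all features. The share of all features called in that fit is not given. Folr1 rose by 2.62, Clic6 by 3.66, Calml4 by 4.10, Prlr by 4.63 and Cldn2 by 5.10 on the log2 scale (edgeR's quasi-likelihood test, adjusted p = 4.98e-05, 0.00101, 1.33e-05, 0.000240 and 0.000489). Prlr and Cldn2 passed the filter through D30, since no D20 organoid had more than 8 reads of Prlr or 4 of Cldn2, and their fitted changes are no bound. Genes of liver and visceral endoderm, which also make transthyretin, were sparse in most organoids. Of 12 such genes 1 passed the filter, Rbp4, the gene of the retinol-binding protein, and it fell by 2.05 on the log2 scale (edgeR's quasi-likelihood test, adjusted p = 2.12e-05). With no filter on low counts, 4 of the 12 were called higher and 1 lower, but 11 of them had at most 10 reads in every D20 organoid. The share of all features called in that fit is not given. The summed level of that list was 4.87 to 10.01 CPM at D20, 3.65 to 7.17 at D22, 1.56 to 3.42 at D25 and 1.68 to 3.54 in 4 organoids of D30. It was 15.1 CPM in organoid 5 and 43.3 CPM in organoid 6 of D30. In organoid 6 Afp, the alpha-fetoprotein gene, had 11.53 CPM and was without reads in the other 5. Alb had 2 reads at most at D30, and Apoa1 had 7.96 and 5.60 CPM in organoids 5 and 6. Organoid 6 also had 144 reads of Cubn, 143 of Apob, 53 of Sox17 and 27 of Foxa2. The other D30 organoids had at most 19, 71, 1 and 2 reads of these genes. Apoa1 was highest in organoid 5 and Amn in organoid 4. Organoid 2, with the highest Ttr level, had 3.24 CPM of the list, and the part of these genes in the Ttr result was not tested.

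The wider melanosome genes rose more often than they fell. Of 23 tested genes of a list of 26, 10 rose and 1 fell from D20 to D30, with a median log2 change of 0.43, beside 13.9% higher, 13% lower and a median of -0.04 over all tested features. Slc7a11, which encodes the cystine transporter, rose by 2.65, Mreg, the melanoregulin gene, by 2.15 and Lyst, a lysosome trafficking gene, by 1.63 on the log2 scale (edgeR's quasi-likelihood test, adjusted p = 1.2e-07, 1.15e-10 and 1.55e-13). Hps1 fell by 1.12 (edgeR's quasi-likelihood test, adjusted p = 0.000810). Gpnmb, at 5.42 CPM at D20 and 20.3 at D30, was not called (edgeR's quasi-likelihood test, adjusted p = 0.101), nor was Slc24a5, at 6.53 and 7.25 CPM (adjusted p = 0.618). Many genes of this list serve lysosome-related organelles in other cells too, and Slc7a11, Mreg and Lyst were not among the genes most like any of the 6.

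Of the pigment epithelium list, 15 of 20 genes were tested, of which 8 rose and 2 fell from D20 to D30, with a median log2 change of 0.86, beside the same shares of 13.9% and 13% and the median of -0.04 over all tested features. Serpinf1, the gene of a secreted neurotrophic factor, rose by 3.71, Kcnj13 by 3.54, Col8a1, a collagen gene, by 3.34 and Enpp2, the autotaxin gene, by 1.85 on the log2 scale (edgeR's quasi-likelihood test, adjusted p = 9.02e-06, 0.000804, 5.48e-06 and 0.00182). Kcnj13 and Enpp2 stand in the choroid plexus list as well. Kcnj13 passed the filter through D30, with at most 10 reads in a D20 organoid, so its fitted change is no bound. With no filter on low counts, chosen after seeing the data, 9 of the 20 were called higher and 2 lower. The median log2 change in that fit was 0.78, against 0.13 over all features, for which the share called is not given. Of the 20, 4 had at most 10 reads in every D20 organoid. Lrat, which esterifies retinol ahead of the RPE65 step, fell from 25.9 to 3.40 CPM, a log2 change of -2.93 (edgeR's quasi-likelihood test, adjusted p = 2.19e-08). Rdh5, a retinol dehydrogenase gene of the visual cycle, had 2.46 CPM at D20 and 5.18 at D30 and was not called (edgeR's quasi-likelihood test, adjusted p = 0.0214).

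Melanocyte genes of the neural crest did not move in a single direction. Of 7 tested genes of a list of 9, 2 rose and 4 fell from D20 to D30, with a median log2 change of -0.96, against 13.9% higher, 13% lower and a median of -0.04 over all tested features. Ednrb, an endothelin receptor gene, rose from 45.5 to 160.0 CPM and Sox10, the neural crest factor, from 0.0892 to 2.47 ± 2.84 CPM (SD, n = 6; edgeR's quasi-likelihood test, adjusted p = 0.000392 and 0.000255). Sox10 had at most 5 reads in a D20 organoid and passed the filter through organoid 1 of D30. Without that organoid its D30 mean was 1.40 ± 1.22 CPM (SD, n = 5) and it was below the filter, so that it was not tested. Kit, the receptor of melanocyte precursors, fell from 28.9 to 14.9 CPM, Mc1r from 3.64 to 1.80 and Mcam from 42.4 to 6.34 CPM (edgeR's quasi-likelihood test, adjusted p = 0.000111, 0.00345 and 5.4e-14). Pax3 was below the filter with 46 reads at most in a D30 organoid, and Foxd3 had none at D30. At D30 Sox10 was highest in organoid 1, at 7.82 CPM, which was also the highest in Tyr, Tyrp1, Pmel and Mlana. It was without reads in organoid 6, which had 13.97 CPM of Tyrp1, and at 2.13 and 1.57 CPM in organoids 4 and 5, the lowest in Tyrp1. The summed level of this list was 122.6 to 164.2 CPM at D20, 82.1 to 124.3 at D22, 72.1 to 120.5 at D25 and 63.8 to 430.1 at D30. Ednrb made up 385.1 CPM of the highest D30 sum, in organoid 1, and 21.5 CPM of the lowest, in organoid 6. The part of the list in the pigment gene results was not tested.

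Genes of the ciliary margin, where neural retina meets pigment epithelium, and of the neural retina stand beside these for comparison. Of the 9 ciliary margin genes, 3 rose and 2 fell from D20 to D30, with a median log2 change of 1.09, beside 13.9% higher, 13% lower and a median of -0.04 over all tested features. Gja1 rose by 2.97, Msx1 by 2.93 and Ccnd2 by 2.27 on the log2 scale, Wfdc1 fell by 1.26 and Zic2 fell by 0.76, and Otx1 was not called (edgeR's quasi-likelihood test, adjusted p = 7.55e-06, 0.000181, 0.000180, 0.00803, 0.000674 and 0.170). Among the neural retina genes, on the log2 scale Pax6 fell by 1.44, Rax fell by 1.15 and Six3 fell by 2.15. Otx2, which drives pigment epithelium as well as photoreceptor fate, fell by 1.52, while Rcvrn rose by 7.38 and Nrl by 1.80 (edgeR's quasi-likelihood test, adjusted p from 2.73e-16 for Rcvrn to 4.97e-08 for Rax).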

How the data were processed

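RNA of 24 single organoids was sequenced from strand-specific libraries. The authors trimmed reads with cutadapt (1.5), aligned them to GRCm38/mm10 with hisat2, assembled transcripts with stringtie (1.3.3) and counted reads per gene or assembled locus with htseq-count (0.6.1). They deposited raw counts, whole numbers per feature without normalization, and the strand setting of the counting is not given in the sources used here. Organoids were grouped by the day in their labels. The 46949 features averaging 10 or more normalized counts were kept, normalized with TMM and tested in a single fit of all organoids with edgeR (4.0.16) in R (4.3.3), with Benjamini-Hochberg adjustment and a threshold of 0.01. DESeq2 (1.42.0) gave the size factors of the filter and an alternative test. Standard errors come from the test statistic. The floor of 3 counts covers counting error alone (reads, not molecules, were counted), and the common biological coefficient of variation was 0.385. Symbols and coordinates are those of GENCODE M21 and promoters those of RefSeq. The scripts were tested on simulated counts.

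The 10 genes and all marker lists were chosen with earlier results of these data known. Named were the 10 genes, the first 3 genes of each list, up to 4 further list genes past 0.01 in the joint test with the largest D20 to D30 change, and the 5 genes most like each tested member. Outside that rule, Rgr, Rrh, Mertk, Slc16a8, Kcne2, Igfbp2, Foxd3, Lmx1a, Foxj1, Cubn, Apob, Sox17, Foxa2 and Amn were named after their values were seen. Cdk2 and Dgka were named for their overlap with Pmel. A gene that the rule would name is not reported here, and the counts of its list are left out with it. Alternatives were DESeq2, its size factors, other filters, annotated genes only, a replicate block, fits of only the compared days, other thresholds and pseudocounts, and the omission of each organoid.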

Additional observations from a re-analysis of the deposited data

Results flagged for a closer look

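In 9 of 39 groups of a gene at a timepoint, the highest organoid stood apart from the other 5 by more than Dixon's 95% limit for 6 values, 0.625. That limit is set for normally distributed values, which CPM of sparse genes are not, so the count is not set against a chance rate. Where only 1 organoid had reads, the ratio was 1 whatever the count, as for Mlana and Slc45a2 at D22 and Rpe65 at D22 and D25. Organoid 1 of D20 was apart in Tyrp1, at 10.6 CPM, and in Pmel, at 10.1 CPM, and organoid 1 of D30 in Pmel, at 22.3 CPM. Oca2 stood apart in organoid 2 of D22, at 2.23 CPM. The other 5 rest on 8 reads or fewer: Mlana in organoid 6 of D22 (0.200 CPM), Slc45a2 in organoid 4 of D22 (0.137 CPM) and organoid 3 of D25 (0.489 CPM), and Rpe65 in organoid 5 of D22 (0.216 CPM) and organoid 4 of D25 (0.0553 CPM).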

How the results depend on the processing

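The calls of Mitf, Dct and Ttr from D20 to D30 held under every alternative run, and 187 of 193 alternative counts stayed within 1.5 times of the reported count. From D22 to D25 the count of 0 became 2 at an adjusted p under 0.05 (Dct and Ttr), 1 without a filter on low counts (Ttr) and 1 in the fit of those timepoints alone (Dct). From D25 to D30 the count of 1 became 0 in the fit of those timepoints alone, and it ranged from 0 to 1 when each organoid was left out, lost without organoid 2 of D25. From D20 to D30 the count of 3 became 5 without a filter (Oca2 and Tyrp1 added) and ranged from 3 to 4 when each organoid was left out. For the fit without a filter the share of all features called is not given. The pairs that vary together ranged from 10 to 13 of 15 when each organoid was left out, and numbered 10 by rank and 14 with a pseudocount of 1.

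Changes that were not called turned direction in some fits. From D20 to D22, leaving out each organoid gave -1.18 to 0.31 for Tyr, -1.41 to 0.25 for Tyrp1, -0.20 to 0.0563 for Dct and -0.80 to 0.99 for Pmel on the log2 scale, and from D25 to D30 -0.89 to 0.53 for Pmel. With the replicate number as a block, Pmel changed by 0.89 from D20 to D22 in place of -0.38, and 12 pairs varied together, though not the same 12: Mitf with Dct no longer passed (permutation test, adjusted p = 0.211) and Ttr with Dct did (adjusted p = 0.00785). The replicate block changed no call of the 6 genes. The replicate numbers do not pair organoids across days by label, and deviations of same-numbered organoids had r over 0.1 in 1 of 36 pairs (median 0.0104). Leaving out organoids 2 and 6 of D30 together, chosen after seeing the data, turned the Ttr change from D25 to D30 to -0.33. With no filter on low counts, also chosen after seeing the data, the liver and visceral endoderm genes called higher from D20 to D30 went from 0 to 4, and without organoid 1 of D30 Sox10 was below the filter and gave no value. The cause of these differences was not tested. At this depth Rpe65, Mlana and Slc45a2 cannot be followed over time.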
